A study of Mus musculus with 4 samples.

Results

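Laminins, integrins and the proteins that tie laminin into a basement membrane were followed through the cells of the postnatal mouse thyroid. Genes were taken by symbol alone: every laminin α, β or γ chain, every integrin α or β subunit, and the linkers nidogen-1 (Nid1), nidogen-2 (Nid2), perlecan (Hspg2) and agrin (Agrn). This gave 41 of the 32285 genes in the count matrices, namely 11 laminin chains, 18 α integrins, 8 β integrins and 4 linkers.

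Thyroids of C57BL/6 mice (C57 in the labels) were dissociated at postnatal days 5, 10, 20 and 30, and droplet single-cell libraries were made from pooled mice, with 1 library per age. The strain, the digestion and the removal of dead cells were shared by all ages, and no mutation or treatment is named for any of them. Each age is therefore a single pool with no replicate, and the 3′ kit is given as version v2 to v3 without saying which library used which.

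A basement membrane is a thin sheet of matrix under every epithelium, around every vessel and around Schwann and smooth muscle cells. Laminins are trimers of an α, a β and a γ chain that form one network of the sheet, and nidogens, perlecan and agrin connect it with type IV collagen and with the cell surface. Integrins are αβ pairs in the cell membrane that hold the cell to this sheet or, in leukocytes, to other cells. In the thyroid such a sheet borders each follicle, and a dense net of fenestrated capillaries lies directly against it.

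After filtering, 29578 cells remained, of which 27294 fell into classes named from fixed marker genes and 2284 stayed unnamed. The classes come from clusters made without the 41 genes, and 14 of them had at least 10 cells in every library. A lymphatic endothelial-like class, with 49, 15, 13 and 1 cells, did not and is left out of the rankings of classes. Values are given throughout in the order of the labels, day 5, 10, 20 and 30, and thyroid follicular cell-like (TFC-like) cells numbered 2343, 505, 300 and 525. Levels are unique molecular identifiers (UMIs) of a gene as CPM, scaled to the sum of all UMIs of the class in a library, with n = 4 libraries for a mean. Tg, the thyroid hormone precursor, stood at 49320 CPM in TFC-like cells and at 646 CPM in fibroblast-like cells. C cell-like cells held 8 thyrocyte markers at 32.3% to 131% of their level in TFC-like cells, Tg at 18990 CPM among them. In the Schwann-like class 6 fibroblast markers stood at 3.55% to 30.1% of their level in fibroblast-like cells, and in the library labelled day 20 this class had 24 cells. NK-like cells held Cd3d, Cd3g, Cd3e, Trbc1 and Trbc2 at 771, 863, 230, 578 and 1249 CPM. T-like cells had 1050, 1315, 385, 1910 and 3589 CPM of these. The T-like markers Rag1 and Dntt were at only 2.38 and 3.34 CPM in NK-like cells.

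Several measurements bear on the labels of the libraries. Between 97.4% and 98.8% of the barcodes of cells at day 10, 20 or 30 recurred in the matrices of the other two, with medians of 8 to 12 UMIs there. For pairs with day 5 the share was 33.6% to 49.9%, at a median of 1 UMI. H19, an imprinted fetal growth gene that falls after birth and was chosen here after its values were seen, was at 61.2, 818, 123 and 2888 CPM in fibroblast-like cells, which does not follow the labelled ages. The study's methods give the most cells to day 30, whereas the files hold the most listed cells, 15297, under day 5. Ages below are therefore those on the labels of the libraries.

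The 41 genes divided among the cell classes by family and by chain. Of these, 33 reached a mean of 50 CPM in at least one of the 14 classes, and the other 8 were Lama1, Lamc3, Itga2b, Itga10, Itga11, Itgad, Itgb3 and Itgb6. Highest levels fell in Schwann-like cells for 8 genes, in blood endothelial-like and fibroblast-like cells for 6 each, in TFC-like and mural-like cells for 5 each, and in immune classes for 10. Parathyroid-like cells had 1, Lama1, with 6, 4, 8 and 20 UMIs. Lymphatic endothelial-like cells, outside this ranking, had higher means than the highest class for Itga9, Lama4, Itgb4 and Itgb3. For 19 of the 41 genes every library of the highest class lay above every library of the second class, and for 22 the classes overlapped. The highest class of some genes changed with the cells used, for 10 of the 33 when libraries were clustered separately, and without the library labelled day 20 for Itga1, Lamb1 and Lamc1.

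**Figure D1:**
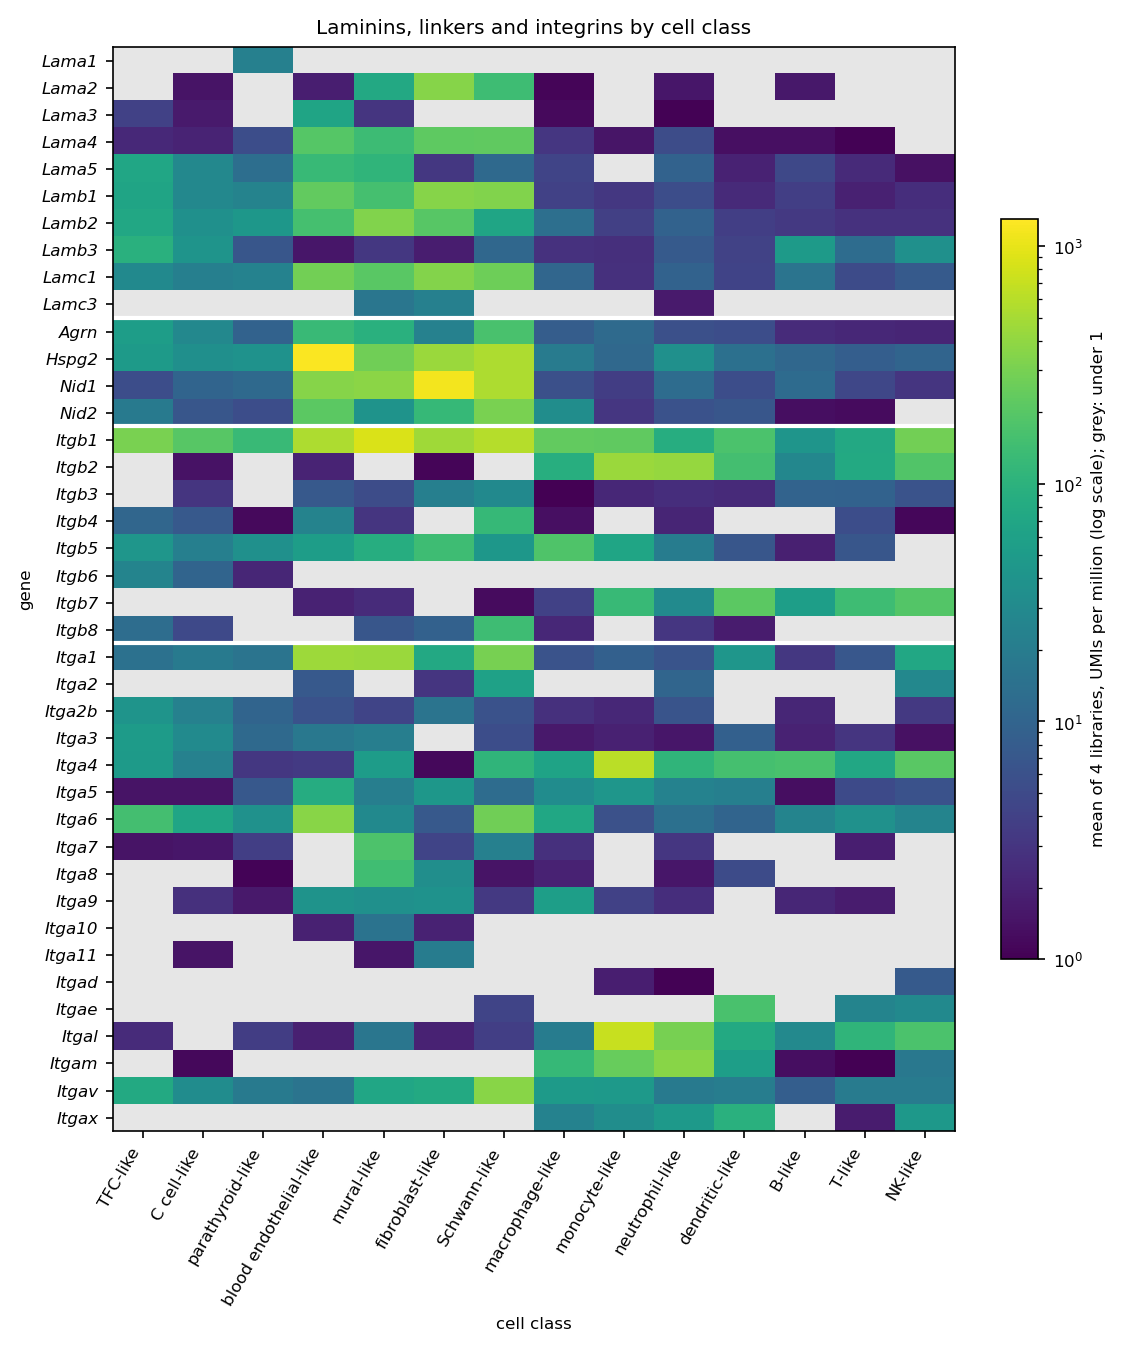
Mean level of the genes reported (rows) in 14 cell classes (columns), in CPM over 4 libraries, on a log colour scale with grey for means under 1; white lines part laminins, linkers, β integrins and α integrins. Lamb3 is brightest in TFC-like cells, Hspg2 in blood endothelial-like cells at 1236 and Nid1 in fibroblast-like cells at 1147.

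Of the laminin β chains, Lamb3 was the one with its highest mean in thyrocytes. It encodes the β3 chain, which occurs with α3 in the laminin that anchors stratified and glandular epithelia. Lamb3 (chromosome 1, 193207699 to 193343878, plus strand, GRCm38) stood at 76.7, 108, 95.5 and 98.4 CPM in TFC-like cells, a mean of 94.7 ± 13.2 (SD, n = 4 libraries). The exact 95% Poisson interval of its lowest library was 73.4 to 80.2 CPM from 1970 UMIs, and such intervals cover counting error only. The next class was B-like cells at 58.1, 22.6, 87.0 and 29.6 CPM, from 15 to 29 UMIs a library, so that the 2 classes overlapped, although TFC-like cells were higher within each of the 4 libraries. Free RNA, measured in droplets with 10 to 100 UMIs, held Lamb3 at 22.1 to 28.5 CPM, so TFC-like cells exceeded it in every library.

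The α3 chain was low in thyrocytes and highest in endothelium. Lama3 stood at 1.21, 6.38, 3.96 and 4.54 CPM in TFC-like cells, where free RNA had 6.55, 9.90, 2.93 and 4.50 CPM, and at 59.3, 69.1, 82.0 and 49.4 CPM in blood endothelial-like cells. Every endothelial library lay far above every thyrocyte library. The TFC-like mean was second among the 14 classes, at 6.19% of the endothelial mean. For scale, 7 endothelial markers stood in TFC-like cells at 0.507% to 1.14% of their endothelial level. How much of the Lama3 level is background was not tested. Of the 5 α chains, Lama5, the broad epithelial and endothelial chain, was the one that TFC-like cells held above free RNA in all 4 libraries. Its TFC-like values of 43.1, 75.1, 74.5 and 83.7 CPM compare with 92.5, 166, 107 and 138 CPM in blood endothelial-like cells and 123, 108, 95.7 and 110 CPM in mural-like cells. Endothelial and mural levels of Lama5 overlapped, and the thyrocyte level was 54.9% of the endothelial mean. Lama2, the chain of muscle and nerve, and Lama4, the vascular chain, were at most 2.13 and 4.98 CPM in TFC-like cells, under free RNA in every library.

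Lamc1 (chromosome 1, 153218922 to 153332786, minus strand), the common γ chain, reached 257, 378, 400 and 334 CPM in fibroblast-like cells against 163, 388, 146 and 436 CPM in blood endothelial-like cells, and these overlapped. TFC-like cells had 18.7, 36.7, 23.1 and 42.3 CPM of it, below free RNA at 23.4, 71.2, 29.8 and 70.9 CPM in all 4 libraries. Their mean was 0.618 times that of free RNA and 8.82% of the fibroblast-like mean. For scale, 6 fibroblast markers stood in TFC-like cells at 0.122% to 0.305% of their fibroblast-like level. How much of the Lamc1 level is background was not tested.

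Both common β chains were present in TFC-like cells without exceeding free RNA throughout. Lamb1 was at 58.7, 59.8, 86.9 and 54.8 CPM there, above free RNA in 2 libraries, and at 253, 395, 384 and 392 CPM in fibroblast-like cells. Schwann-like cells overlapped the latter with 257, 404, 242 and 428 CPM. Lamb2 was at 60.9, 64.3, 87.7 and 83.9 CPM in TFC-like cells, above free RNA in 3 libraries. Mural-like cells led Lamb2 with 387, 269, 402 and 288 CPM, above every library of the fibroblast-like class, whose highest was 226 CPM. Lama2 was led by fibroblast-like cells at 298, 339, 509 and 258 CPM. Lama4 did not separate its leading classes, with 111, 338, 121 and 328 CPM in Schwann-like, 147, 269, 201 and 259 CPM in fibroblast-like and 137, 284, 101 and 271 CPM in blood endothelial-like cells. Lamc3 stayed between 8.45 and 37.4 CPM in fibroblast-like cells.

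**Figure D2:**
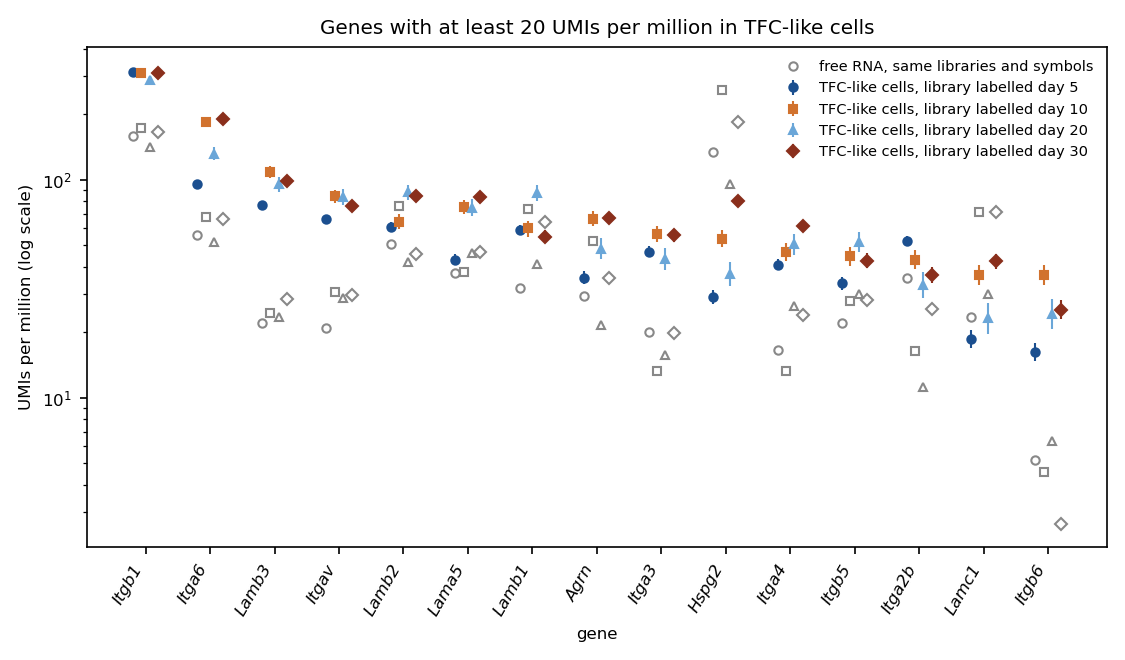
Levels in CPM (log scale) of the genes reported that averaged at least 20 in TFC-like cells, with filled symbols for each library and its exact 95% Poisson interval, and open grey symbols of the same shape for free RNA in that library. Lamb3, Itga3 and Itgb6 lie above free RNA in all 4 libraries, while Hspg2 and Lamc1 lie below it in all 4.

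All 4 linkers were highest outside the thyrocytes, in endothelial-like, fibroblast-like or Schwann-like cells. Perlecan, the heparan sulfate proteoglycan of vessel walls, was at 886, 1427, 1089 and 1542 CPM in blood endothelial-like cells, above every library of the second class, Schwann-like, whose highest was 699 CPM. TFC-like cells had Hspg2 at 29.0, 53.8, 37.2 and 80.2 CPM, or 4.05% of the endothelial mean and 0.297 times the mean of free RNA. For scale, 7 endothelial markers stood in TFC-like cells at 0.507% to 1.14% of their endothelial level. Unlike such markers, Hspg2 was also held by Schwann-like, fibroblast-like and mural-like cells, at means of 543, 443 and 277 CPM. How much of its thyrocyte level is background was not tested. Nid1 was at 822, 1297, 1312 and 1159 CPM in fibroblast-like cells and at 1.48, 9.09, 5.48 and 5.69 CPM in TFC-like cells. Schwann-like cells reached 900 CPM of Nid1 in the library labelled day 30 and so overlapped the fibroblast-like class.

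Nid2 was highest in Schwann-like cells at 171, 456, 167 and 440 CPM, the library labelled day 20 resting on 11 UMIs with an interval of 83.2 to 298 CPM. Blood endothelial-like cells overlapped with 70.9, 299, 120 and 372 CPM, and TFC-like cells had 13.3, 29.8, 17.1 and 15.7 CPM. Agrin, which clusters receptors at synapses and also binds integrins and dystroglycan in epithelia, differed from the other 3 linkers. It stood at 35.6, 66.2, 48.4 and 66.7 CPM in TFC-like cells, above free RNA in each library, and at 104, 246, 121 and 199 CPM in Schwann-like and 94.5, 157, 104 and 159 CPM in blood endothelial-like cells. The last 2 classes overlapped, and both lay above the thyrocytes in every library.

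Among receptors, TFC-like cells held a β1 set and an αv set. Itgb1, the shared partner of most laminin- and collagen-binding α subunits, was at 312, 308, 286 and 307 CPM in TFC-like cells, a mean of 303 ± 12.1 (SD, n = 4 libraries). Mural-like cells led it with 692, 1019, 689 and 1093 CPM, overlapping Schwann-like cells at 485, 780, 424 and 659 CPM. Itga6 encodes the α6 subunit of the main laminin receptors and stood at 96.1, 184, 132 and 190 CPM in TFC-like cells. Blood endothelial-like cells had 419, 366, 277 and 374 CPM, above the thyrocytes in every library, with Schwann-like cells overlapping them at 188, 307, 121 and 473 CPM.

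Itga3 (chromosome 11, 95044474 to 95076801, minus strand), another laminin receptor subunit, was highest in TFC-like cells at 46.8, 56.6, 43.5 and 55.7 CPM, above the C cell-like class, whose highest library had 35.5 CPM, and above the 40.4 CPM of mural-like cells labelled day 5. Itgb4, the hemidesmosome subunit that pairs with α6, was at 7.98, 13.1, 12.8 and 9.08 CPM in TFC-like cells. Schwann-like cells led Itgb4 with 144, 100.1, 152 and 90.0 CPM, from 10 to 59 UMIs a library. Itga2, a collagen receptor subunit, reached 32.2, 86.5, 30.3 and 90.0 CPM in the same class on as few as 2 UMIs.

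The αv integrins bind RGD-bearing ligands, and αvβ6 and αvβ8 release active TGF-β from its latent form. Itgav was at 65.9, 83.9, 83.6 and 75.7 CPM in TFC-like cells, against 238, 534, 273 and 424 CPM in Schwann-like and 64.8, 85.1, 76.2 and 89.7 CPM in fibroblast-like cells. TFC-like and fibroblast-like levels of Itgav overlapped almost entirely. Itgb6 (chromosome 2, 60598292 to 60722643, minus strand) was found in TFC-like cells at 16.3, 36.6, 24.2 and 25.4 CPM and in C cell-like cells at 5.77, 15.2, 17.2 and 2.26 CPM. The library labelled day 20 of the C cell-like class exceeded the lowest TFC-like library, so these classes overlapped, and parathyroid-like cells followed with a mean of 2.14 CPM. Itgb8 was at 8.45, 12.4, 22.5 and 7.93 CPM in TFC-like cells and at 173, 84.8, 152 and 158 CPM in Schwann-like cells. Itgb5 was at 33.5, 44.6, 51.9 and 42.6 CPM in TFC-like cells, 170, 159, 262 and 129 CPM in macrophage-like cells and 109, 151, 169 and 127 CPM in fibroblast-like cells, the last 2 overlapping.

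Thyrocytes also listed 2 α subunits better known from blood cells. Itga2b (chromosome 11, 102453297 to 102470122, minus strand), the αIIb chain of the platelet fibrinogen receptor, was highest in TFC-like cells at 52.6, 43.1, 33.0 and 36.6 CPM, followed by C cell-like cells at 34.6, 22.2, 16.0 and 20.3 CPM, which overlapped them. In TFC-like cells the platelet genes Pf4, Ppbp, Gp9 and Gp1bb averaged 7.31, 0.275, 0.174 and 0.0980 CPM, and Itgb3, which pairs with αIIb in platelets, averaged 0.138 CPM. Itga4, a receptor subunit for fibronectin and VCAM1, was at 40.9, 46.5, 50.6 and 61.4 CPM in TFC-like cells, above free RNA in each library. Monocyte-like cells led Itga4 with 452, 507, 875 and 668 CPM, well over NK-like cells at 162 to 264 CPM.

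To show sequence at the starts of genes that were highest in thyrocytes, the 250 bases before the first transcript start in RefSeq's promoter table (GRCm38.p6) are given for Lamb3, Itga3, Itgb6 and Itga2b, each 5′ to 3′ on the strand of the gene. The windows are chr1:193301744-193301993 (plus strand), chr11:95076715-95076964, chr2:60722604-60722853 and chr11:102469884-102470133 (minus strand for the last 3). The Lamb3 window lies wholly, and the other 3 lie in part, inside the gene intervals given above, which come from another annotation and begin further upstream. Capitals mark matches on either strand to GGGCGG (a GC box), TGANTCA (AP-1), CTCAAG (NKX2-1) or CCGGAA (ETS), none of which overlapped another.
Lamb3: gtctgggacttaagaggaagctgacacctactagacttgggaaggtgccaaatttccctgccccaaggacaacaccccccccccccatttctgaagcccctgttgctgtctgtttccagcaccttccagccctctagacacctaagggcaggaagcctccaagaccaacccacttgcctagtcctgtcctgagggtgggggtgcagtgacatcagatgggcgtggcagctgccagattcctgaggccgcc
Itga3: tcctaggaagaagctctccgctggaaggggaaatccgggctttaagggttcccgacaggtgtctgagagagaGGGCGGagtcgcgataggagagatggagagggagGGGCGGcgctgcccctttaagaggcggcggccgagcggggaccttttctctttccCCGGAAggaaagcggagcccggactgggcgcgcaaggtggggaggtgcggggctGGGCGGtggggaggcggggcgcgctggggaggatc
Itgb6: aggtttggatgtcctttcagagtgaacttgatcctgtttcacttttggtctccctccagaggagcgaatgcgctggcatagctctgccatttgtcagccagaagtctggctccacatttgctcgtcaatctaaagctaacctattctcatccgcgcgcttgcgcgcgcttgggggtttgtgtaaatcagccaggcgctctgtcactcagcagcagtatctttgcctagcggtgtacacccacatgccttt
Itga2b: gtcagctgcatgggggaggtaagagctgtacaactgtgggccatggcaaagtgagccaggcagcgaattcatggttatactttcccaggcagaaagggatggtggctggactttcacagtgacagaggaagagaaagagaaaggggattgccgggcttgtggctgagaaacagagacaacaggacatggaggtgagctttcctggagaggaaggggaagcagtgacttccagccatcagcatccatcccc
Only the Itga3 window held any of them, with 3 GC boxes at 178, 144 and 35 bases and 1 ETS match at 89 bases before the start. Of 32851 RefSeq promoter windows of 250 bases, 32.7% held the GC box, 6.75% the AP-1 letters, 13.3% the NKX2-1 letters and 12.0% the ETS letters. GC content was 58.8% for Lamb3, 67.6% for Itga3, 52.0% for Itgb6 and 54.0% for Itga2b, with a median of 52.4% over all windows.

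The remaining integrins marked other classes. In mural-like cells Itga7, a laminin receptor subunit of muscle, was at 114, 187, 191 and 214 CPM and Itga8, a nephronectin receptor subunit, at 183, 139, 153 and 102 CPM, both above every library of the second class. Itga1, the collagen and laminin receptor of vessels, was at 383, 482, 555 and 404 CPM in blood endothelial-like and 216, 561, 345 and 653 CPM in mural-like cells, which overlapped. Itga5, the fibronectin receptor subunit, led in blood endothelial-like cells with 58.5, 102, 66.8 and 107 CPM, above the 54.7 CPM that fibroblast-like cells reached at most. TFC-like cells had at most 2.68 CPM of Itga7, 0.761 CPM of Itga8, 20.2 CPM of Itga1 and 2.27 CPM of Itga5. Itga9 was at 46.8, 53.3, 65.1 and 59.4 CPM in macrophage-like cells, above the 44.1 CPM that blood endothelial-like cells reached at most, but overlapping fibroblast-like cells, which reached 50.5 CPM, and mural-like cells, which had 46.8, 59.8, 9.57 and 30.6 CPM.

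Leukocyte integrins had their highest levels in leukocytes. Itgal, the αL subunit, and its partner Itgb2 were highest in monocyte-like cells at 378, 672, 1050.0 and 716 CPM and at 313, 422, 544 and 513 CPM. Neutrophil-like cells led Itgam, the αM subunit, with 198, 425, 475 and 376 CPM. Dendritic-like cells led the other 3, with 88.4, 91.5, 112 and 90.5 CPM of Itgax (αX), 61.6, 192, 168 and 242 CPM of Itgae (αE) and 191, 260, 188 and 209 CPM of its partner Itgb7. The leading classes of Itgal, Itgb2, Itgam and Itgb7 overlapped their second classes. None of the 6 exceeded 4.57 CPM in a TFC-like library. Mural-like cells held Itgal at 2.42, 23.9, 19.1 and 21.4 CPM, from 2 to 23 UMIs a library and above free RNA in the libraries labelled day 10 and day 30. Itgad was detected with 1 to 8 UMIs a library in NK-like cells. Fibroblast-like cells held Itga11 at 11.8 to 30.9 CPM, mural-like cells Itga10 at 7.26 to 28.7 CPM and Schwann-like cells Itgb3 at 0 to 57.9 CPM, where the library at 0 allows up to 45.5 CPM by 3 counts.

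The design allows classes, though not ages, to be tested over the 4 libraries. TFC-like cells were compared with C cell-like, blood endothelial-like, fibroblast-like and mural-like cells on UMI sums per class and library (edgeR quasi-likelihood test with library as block, Benjamini-Hochberg adjustment over 14263 genes). A filter on low counts passed 35 of the 41 genes, and Itgad, Itgae, Itgam, Itgax, Itgb7 and Lama1 did not pass. Some passed only through a class where they are high, such as Itga2, Itgb3 and Itga8 with means of 0.0910, 0.138 and 0.242 CPM in TFC-like cells, and so had to differ. The same holds for genes low in a compared class, such as Itgb6 and Itgb8, at most 0.669 and 0.707 CPM in blood endothelial-like libraries. The counts and medians below, and the fold changes of such genes, are therefore descriptions of the genes that passed. Classes were built from the same cells, so these tests are not independent of the clustering, although the 41 genes and the pathway genes below took no part in it.

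Against blood endothelial-like cells, thyrocytes were higher in 10 of the 35 and lower in 22, where 35.7% of all genes tested were higher and 30.9% lower. The median log2 fold change was −1.12 over the 35 and 0.04 over all genes. Thyrocytes exceeded endothelium in Lamb3 by a log2 fold change of 5.78 (SE 0.36), in Itgb8 by 5.65 and in Itgb6 by 5.50. In blood endothelial-like libraries Lamb3, Itgb8 and Itgb6 had at most 2.77, 0.707 and 0.669 CPM, so these values are descriptions only. Itga4 at 3.82, Itga2b at 2.78, Itgav at 2.33 and Itga3 at 1.56 were higher as well. The most negative values were Lama4 at −6.53 (SE 0.32), Nid1 at −6.13, Itga2 at −5.92, Itga5 and Itga9 at −5.89 each, Itgb3 at −5.34 and Itga1 at −4.95. In TFC-like cells Lama4, Nid1, Itga2, Itga5, Itga9 and Itgb3 had means of only 2.27, 5.44, 0.0910, 1.45, 0.576 and 0.138 CPM. Their values are descriptions of genes that are higher in other classes. Hspg2 followed at −4.63 (SE 0.26, edgeR adjusted p = 1.41e-11), Lama3 at −4.10, Nid2 at −3.29 and Lamc1 at −3.16. Differences were smaller for Lamb1 at −1.67, Itga6 at −1.23, Agrn at −1.22, Lamb2 at −1.03, Lama5 at −0.84 and Itgb1 at −0.78, all called. Itga7 and Itga11, 2 other higher genes, had means of 1.47 and 0.739 CPM in TFC-like cells, 0.289 and 0.452 times their free RNA. Whether these levels are background was not tested. With libraries clustered separately the difference of Itga7 turned to −0.68 and was not called.

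Against fibroblast-like cells, thyrocytes were higher in 11 and lower in 20, beside 32.5% and 30.5% of all genes, with a median of −1.79 over the 35 and 0.02 over all. Lama5 separated these classes with a log2 fold change of 4.31 (SE 0.26, edgeR adjusted p = 3.21e-11), as did Itga6 at 4.19. Lamb3 at 5.73, Itga3 at 5.93 and Itgb6 at 7.04 were higher as well. Fibroblast-like libraries had at most 2.72, 1.43 and 0.287 CPM of them, so these values only describe genes that are low there. Lama3 was higher at 2.24, though its sign changed with doublets kept. Lama2 at −8.90 and Nid1 at −8.02, with means of 0.945 and 5.44 CPM in TFC-like cells, lay furthest in the other direction. Against mural-like cells, 7 were higher and 20 lower, beside 27.1% and 23.2% of all genes, with medians of −1.36 and 0.06. Itgb6 at 4.68, Itga2b at 3.04 and Itga6 at 2.35 were higher, as was Lamb3. Mural-like cells had 3, 19 and 15 UMIs in all of Itgb6, Itga2b and Lamb3, whose values are therefore descriptions. Itga8 at −9.52 and Itga7 at −6.84 were lower, values that only describe genes with means of 0.242 and 1.47 CPM in TFC-like cells. The lower call of Lama5 at −0.61 was lost with DESeq2 and without the library labelled day 5 or day 10. Against C cell-like cells, 15 were higher and 2, Itga9 and Itgb3, lower, beside 22.1% and 16.5% of all genes, with medians of 0.58 and 0.12. In C cell-like cells Itga9 and Itgb3 had 18 and 14 UMIs in all. Their means of 2.71 and 3.05 CPM there were under free RNA means of 8.70 and 3.60 CPM. Leaving out the library labelled day 10 reduced the 15 to 8. The largest of the 15 were Itgb8 at 1.41, Itgb6 at 1.37, Lama5 at 1.26 and Lamb3 at 1.25, in a class that carried the thyrocyte markers given above, whose part in these values was not tested.

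**Figure D3:**
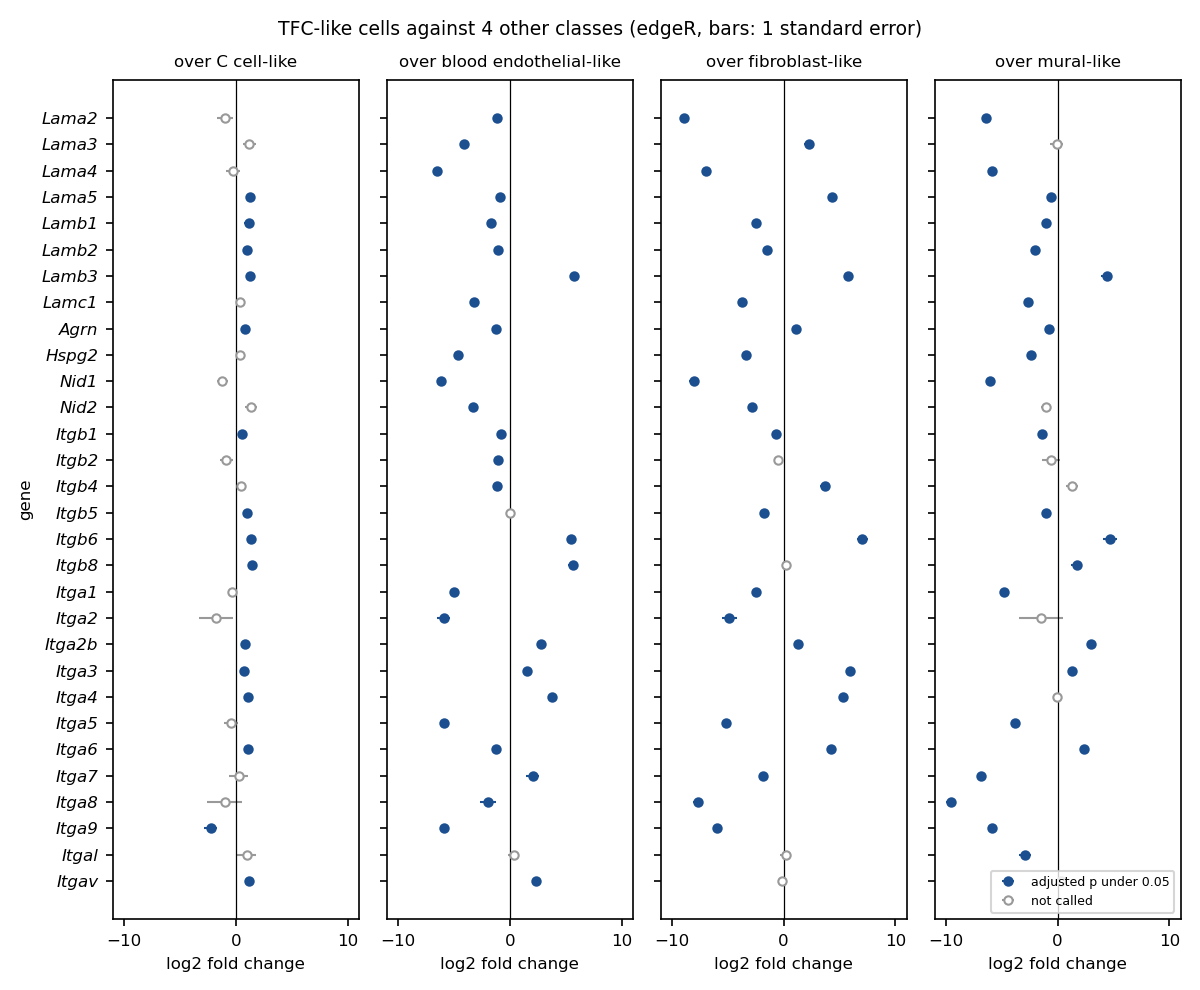
Log2 fold change of TFC-like cells over each of 4 classes, with bars of 1 standard error, for the genes reported that passed the count filter and reached 50 CPM in a class, with Itgb6 and Itga2b; filled points had an edgeR adjusted p under 0.05. Lamb3 and Itgb6 are to the right of 0 in all 4 panels, and Lama4, Nid1 and Hspg2 are far to the left in the last 3 panels. Itgb6 and Itga2b were added because TFC-like cells were highest for them, so their side of 0 followed from that choice.

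Other genes of the basement membrane were read from 4 lists of known function, to be set beside the 35.7% of all genes that were higher and the 30.9% that were lower in the same comparison. Genes named below were picked by the size of this same difference, which favours genes low in either class, so their values are descriptions. Among 21 tested matrix genes, 11 were higher and 8 lower in TFC-like than in blood endothelial-like cells. The largest called differences were Ntn4 at −7.23, which interferes with laminin assembly, Col15a1 at −6.71 and Col4a6, a type IV collagen chain of epithelia, at 6.24. Of 11 other adhesion receptors 6 were higher and 4 lower, led by the syndecan Sdc4 at 6.35, the syndecan Sdc3 at −5.87 and the collagen receptor Ddr1 at 5.43. Of 18 genes whose products link integrins to the cytoskeleton 4 were higher and 10 lower, led by the kindlin Fermt1 at 6.62, the kinase Src at 5.29 and Parvb at −3.76. Of 14 proteases and inhibitors 1 was higher and 10 lower, led by Adamts4 at −5.17, the plasminogen activator Plat at −4.98 and Adamts1 at −3.74.

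For ages, the library labelled day 30 was set against that labelled day 5 within 5 classes, over genes with a mean of 20 CPM or more in these 2 libraries. A gene under 20 CPM in one of them passed only through the other, and so had to differ. Among the genes past 2-fold this holds for Lamc1 in TFC-like, Itgb5 in blood endothelial-like, Itgb3 and Lamc3 in fibroblast-like, Nid2 and Itga3 in mural-like and all 4 in macrophage-like cells, so the counts below are descriptions only. With 1 library per age there is no test, a ratio compares 2 pools of mice, and a change past 2-fold is only described. Between the libraries labelled day 30 and day 10, 7 genes of 6633 were past 2-fold higher and 11 lower in TFC-like cells, and 123 and 117 of 6820 in mural-like cells, the fewest and the most of the 5 classes. TMM scaling would move all log2 ratios down by 0.35 in TFC-like, 0.13 in blood endothelial-like, 0.07 in fibroblast-like, 0.20 in mural-like and 0.23 in macrophage-like cells. That would take Lamc1 in TFC-like, Nid1 in blood endothelial-like and Itga1 in fibroblast-like cells below 2-fold. It would also take Itga8 in mural-like cells, with a log2 ratio of −0.84, past 2-fold lower.

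In TFC-like cells 2 of 16 genes, Hspg2 and Lamc1, were past 2-fold higher at day 30 as labelled and 0 lower, beside 4.76% and 1.55% of all genes. The median log2 ratio was 0.53 over the 16 and 0.21 over all genes. Both genes were below free RNA in every library, and free RNA of Lamc1 was itself 23.4 CPM in the library labelled day 5 and 70.9 CPM in that labelled day 30. Itga6 at 1.98-fold (95% interval of the log2 ratio 0.91 to 1.06), Lama5 at 1.94-fold (0.84 to 1.08) and Agrn at 1.87-fold (0.78 to 1.04) came next. Itgb1 differed by a log2 ratio of −0.02 (−0.08 to 0.03), and Lamb3 by 0.36 (0.26 to 0.46). Itga2b was lower, at −0.52 (−0.67 to −0.38). One TFC-like cluster held 65.9% of these cells in the library labelled day 5 and 14.5% in day 30, and a second held 33.8% and 74.9%. Within the first, Agrn went from 37.3 to 44.3 CPM, Itga6 from 94.5 to 157 CPM and Lama5 from 43.8 to 72.1 CPM. Within the second, Agrn went from 32.8 to 67.4 CPM, Itga6 from 98.7 to 191 CPM and Lama5 from 42.3 to 84.6 CPM.

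Blood endothelial-like cells had 4 of 17 genes past 2-fold higher and 1 lower, beside 3.61% and 2.74% of all genes, with medians of 0.58 over the 17 and 0.08 over all. Nid2 rose from 70.9 to 372 CPM, 5.25-fold (interval of the log2 ratio 2.29 to 2.50), Lamb1 from 121 to 348 CPM, Lamc1 from 163 to 436 CPM and Nid1 from 224 to 456 CPM. Lama4 was just inside 2-fold at 1.98-fold, and Hspg2 at 1.74-fold. For these 4 genes the library labelled day 20 lay nearer to day 5, and that labelled day 10 nearer to day 30. Itgb5 was lower, at 38.9, 26.5, 134 and 16.6 CPM, with its peak in the library labelled day 20.

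The endothelial clusters were not equally filled, and 1 cluster held 1.8% of these cells in the library labelled day 5, 64.2% in day 10, 16.7% in day 20 and 71.9% in day 30. Within that cluster Nid2 went from 79.2 to 414 CPM (log2 ratio 2.36, interval 1.81 to 3.03). Lamb1 went from 257 to 396 CPM there (0.61, interval 0.30 to 0.97), Lamc1 from 257 to 471 CPM (0.86) and Nid1 from 303 to 510 CPM (0.74). In the cluster that held 47.3% of the cells at day 5 and 4.68% at day 30, Lamc1 had a log2 ratio of −0.15 (−1.91 to 0.94) and Nid1 of −0.34 (−1.91 to 0.67), on 5 and 6 UMIs at day 30. Nid2 in that cluster had 0.60 (−1.45 to 1.81) and Lamb1 0.62 (−0.80 to 1.57). In 2 further clusters, with 6.64% to 7.15% of the cells in both libraries, Nid2 went from 30.5 to 123 CPM and from 78.8 to 239 CPM. Log2 ratios there were for Lamc1 1.07 and 1.51, for Lamb1 0.84 and 1.40, and for Nid1 0.75 and 0.89. Free RNA of Nid2 was 12.7, 50.3, 14.7 and 52.1 CPM, lower than the endothelial values but ranking the 4 libraries in the same order. That of Lamc1 was 23.4, 71.2, 29.8 and 70.9 CPM, of Nid1 30.0, 119, 54.3 and 112 CPM, and of Lamb1 32.0, 73.5, 41.1 and 64.1 CPM. These too were under the endothelial values and higher at day 10 and 30 than at day 5 and 20. Their part in the ratios was not tested.

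Mural-like cells showed the largest share, with 9 of 21 genes past 2-fold higher and 1 lower, beside 11.3% and 5.65% of all genes, and medians of 0.91 and 0.21. Nid2 went from 13.7 to 94.7 CPM on 17 and 102 UMIs (log2 ratio 2.75, interval 2.04 to 3.62), Lamb1 from 39.5 to 255 CPM (2.68), Nid1 from 112 to 611 CPM (2.44) and Lama4 from 67.8 to 225 CPM (1.72). Mural-like Nid2, at 13.7, 52.4, 0 and 94.7 CPM, was close to its free RNA of 12.7, 50.3, 14.7 and 52.1 CPM or below it except at day 30. Itga1, Agrn, Lama2, Lamc1 and Itga4 were the other 5, between 2.48-fold and 3.02-fold. One of 2 mural clusters held 75.4% of cells in the library labelled day 5 and 25.5% in day 30. Within it Lamb1 had a log2 ratio of −0.17 (−1.25 to 0.75), and in the other cluster 1.77 (1.06 to 2.67), while Nid1 was higher in both, at 1.44 and 1.19. Itga1 went from 176 to 275 CPM in the first (0.65) and from 597 to 973 CPM in the other (0.69), both less than for the whole class. Lama2 had 1.18 (0.09 to 2.28) in the first and −0.55 (−1.26 to 0.27) in the other. The library labelled day 20 had 21 mural-like cells.

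In fibroblast-like cells 2 of 18 genes, Itga1 and Itgb3, were past 2-fold higher and 1, Lamc3, lower, beside 4.05% and 3.64% of all genes, with medians of 0.21 and 0.11. Lamc3 went from 37.4 to 8.45 CPM (log2 ratio −2.14, interval −2.51 to −1.79). Nid1 rose less than 2-fold, from 822 to 1159 CPM. One cluster held 79.8%, 3.7%, 73.3% and 1.6% of these cells in the 4 libraries. Within the 2 clusters that allowed a ratio, Itga1 had −1.14 (−2.63 to 0.15) on 15 and 8 UMIs and 1.81 (1.28 to 2.46), and Itgb3 had 0.28 (−0.34 to 0.92) and 1.51 (0.59 to 2.82). In the latter cluster Lamc3 had −1.41 (−2.08 to −0.64) on 22 and 81 UMIs, a smaller difference than for the whole class.

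Macrophage-like cells had 1 of 13 genes, Nid2, past 2-fold higher and 3 lower, beside 10.0% and 5.34% of all genes, with medians of 0.19 and 0.33. Nid2 was at 14.9, 44.4, 13.4 and 60.1 CPM there, close to its free RNA in each library. The lower genes were Hspg2, itself below free RNA in each library, Itgax at 38.7, 5.58, 44.5 and 8.51 CPM, and Itga5 at 50.9, 22.3, 40.6 and 16.6 CPM. One cluster held 66.9% of the macrophage-like cells at day 5 and 6.94% at day 30, and another 20.3% and 72.0%. Within the first, Itgax went from 52.2 to 71.4 CPM (log2 ratio 0.47, interval −0.21 to 1.07), opposite to the whole class, and Itga5 from 65.0 to 27.4 CPM (−1.18). Within the second, Nid2 had 0.97 (0.46 to 1.57), Hspg2 −1.37 (−2.19 to −0.50) and Itga5 −0.33 (−1.08 to 0.55).

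**Figure D4:**
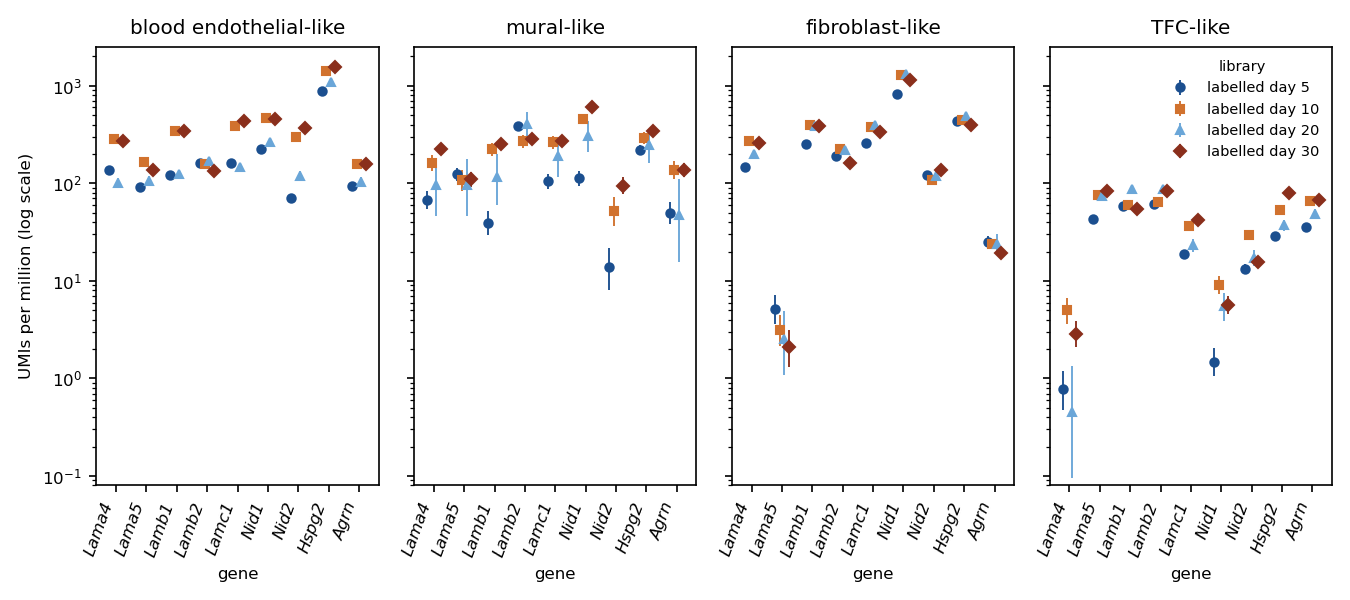
Levels in CPM (log scale) of 5 laminin chains and the 4 linkers in blood endothelial-like, mural-like, fibroblast-like and TFC-like cells, with a symbol for each library and its exact 95% Poisson interval; Nid2 in mural-like cells of the library labelled day 20 had 0 UMIs and is not drawn. In endothelial-like cells Nid2, Lamb1, Lamc1 and Lama4 are higher in the libraries labelled day 10 and 30 than in those labelled day 5 and 20.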

How the data were processed

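Per the labels and the study's methods, the authors aligned droplet 3′ reads to mm10 with CellRanger and deposited UMI counts per gene and barcode, 1 matrix per library, with 54921806 to 89039113 UMIs each. The CellRanger version differs between the sources, and the submitters' processing notes also name Seurat. The study's own limit of 10000 UMIs per cell and its Seurat integration were run as alternatives, not in the main analysis.

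Each barcode of the authors' cell list went to the library holding most of its UMIs, and one listed more than once to as many libraries. Barcodes of the authors' cell list were kept at 200 or more UMIs, at most 10% mitochondrial and at most 5% hemoglobin UMIs, and the 6% of each library with the highest Scrublet scores were removed as doublets, because the automatic threshold marked almost none in 3 libraries. Cells were clustered with scanpy 1.11.5 (3000 variable genes without the 41 members and the pathway genes, 30 components, resolution 1.5) and clusters named from fixed markers; a rule leaving a cluster unnamed when a second class scored 0.8 of the first was added after the clusters were seen. UMIs were summed per class and library. Classes were compared with edgeR 4.0.16 (quasi-likelihood, library as block, because the classes of 1 library come from the same pool), and ages by ratios with exact binomial intervals and 0.5 UMI added. The procedure was tested on simulated data. Members with a mean of 50 CPM in a class were described per library, the others by range; Itgb6 and Itga2b, under that level, were added after their values were seen because TFC-like cells were highest. At most 3 genes per pathway list were named, by size of the called difference from endothelium. The 41 members and the pathway lists were chosen with earlier results of these data known. Values of 1 member are not reported here, although it stays in all counts and medians. Alternatives used DESeq2 1.42.0, other filters, other cell sets and each library left out; ratios within clusters were added after seeing the data. Intervals cover counting error only, and no p-value covers the spread between mice.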

Additional observations from a re-analysis of the deposited data

How the results depend on the processing

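The same 5 genes, Lamb3, Itga3, Itga2b and Itgb6 among them, were highest in TFC-like cells without each library in turn and under every other cell set. Itgb8 joined them when libraries were clustered separately, where a Schwann-like class was missing. Of the 33 genes that reached 50 CPM, 23 kept their highest class under that setting, 27 at most 10000 UMIs, 27 at most 5% mitochondrial UMIs, 30 without the library labelled day 20, and 31 or 32 otherwise; classes were missing from the first 3 of these. Of the counts of genes called between classes, the number lower than in C cell-like cells, 2, became 1 with 1 fit per pair of classes or at most 5% mitochondrial UMIs, 0 at most 10000 UMIs and 8 with doublets kept. With each library left out it was 1 to 3, and the number higher, 15, was 8 to 15. Without the replicate block the numbers higher and lower were 11 and 2 for C cell-like, 10 and 20 for blood endothelial-like, 11 and 20 for fibroblast-like, and 7 and 19 for mural-like cells. DESeq2 called 10 higher than in C cell-like cells. Single-gene differences that changed sign were Itga7 against endothelium at −0.68 with libraries clustered separately and Lama3 against fibroblasts at −0.056 with doublets kept. The causes were not tested.

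The numbers past 2-fold between the libraries labelled day 30 and day 5 were 2, 5, 3, 10 and 4 in TFC-like, blood endothelial-like, fibroblast-like, mural-like and macrophage-like cells. Without a filter on low values they were 11, 14, 14, 22 and 24. Between day 30 and day 10 they were 0, 0, 0, 1 and 0, and between day 20 and day 5 they were 0, 2, 0, 4 and 1. Between day 20 and day 10 they were 0, 5, 1, 5 and 2. At most 10000 UMIs gave 1 in TFC-like and 1 in fibroblast-like cells, equal weight for every cell and TMM scaling each gave 1 in TFC-like cells, a filter of 5 CPM gave 7 in macrophage-like cells, and separate clustering gave 1 there.

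Log2 ratios of these genes changed sign mostly between day 20 and day 10. There Hspg2 was −0.53 and Lamc1 −0.66 in TFC-like cells. Endothelial-like cells had Itgb5 2.34, Lamb1 −1.45, Lamc1 −1.40, Nid1 −0.82 and Nid2 −1.31. Fibroblast-like cells had Itga1 −0.57, Itgb3 −1.63 and Lamc3 0.31. Mural-like cells had Agrn −1.39, Itga1 −0.69, Itga3 1.09, Lama4 −0.70, Lamb1 −0.90, Lamc1 −0.43, Nid1 −0.56 and Nid2 −3.47. Macrophage-like cells had Itga5 0.87, Itgax 2.98 and Nid2 −1.71. Between day 30 and day 10, Nid1 was −0.038 in endothelial-like, Itgb3 −0.15 in fibroblast-like, Itga3 0.61 and Lama2 −0.039 in mural-like and Itgax 0.60 in macrophage-like cells. Between day 20 and day 5, Itgb5 was 1.79 and Lamc1 −0.16 in endothelial-like, Itgb3 −0.24 in fibroblast-like, Nid2 −1.56 in mural-like, and Itgax 0.21 and Nid2 −0.14 in macrophage-like cells. Within single clusters, day 30 over day 5 gave Lamc1 −0.15 and Nid1 −0.34 in an endothelial cluster with 31 cells at day 30, Itga1 −1.14 in a fibroblast cluster, Lamb1 −0.17 and Lama2 −0.55 in 1 mural cluster each, and Itgax 0.47 in a macrophage cluster. With 1 library per age, ages, pools of mice and libraries cannot be told apart.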
